A study of Oryza sativa with 4 samples.

Results

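Transporter genes outside chromosomes 6 and 11 were examined in rice leaves, for their signals in wild type and in the *hd1-3* mutant grown in short days (SD) or long days (LD). The 39 genes are those whose annotation in the study's table of expressed genes contains transporter, permease or aquaporin, among the first 1996 of 16056 rows, with the locus numbers of chromosomes 6 and 11 left out. These words matched 48 genes in those rows, and 9 of them lie on the excluded chromosomes. Each of the 39 genes was read from 1 probe set (several short oligonucleotides read together as 1 signal) of the 57194 probe sets on the array that are not controls.

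Plants were 35 days old. Leaves of Zhonghua11, the wild type and a japonica cultivar, and of *hd1-3*, a line in which the flowering regulator gene *Hd1* carries deletions and insertions and does not work, were each hybridised to 1 Affymetrix Rice Genome Array per day length, at 28 °C. Under SD condition the plants had 11.5 h of light and 12.5 h of dark, and under LD condition 15 h of light and 9 h of dark. SD leaves were taken 3 h and LD leaves 5 h after the light came on, so day length and time after light cannot be told apart in any difference between SD and LD. The number of plants behind each RNA is not stated, and *hd1-3* is 1 mutant line. In whole leaves, fewer cells of a type and less RNA per cell cannot be told apart either.

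Transporters are membrane proteins that carry ions, water and metabolites into and out of cells and between their compartments. In leaves they unload minerals from the xylem, store ions and water in the vacuole and load sugars and amino acids into the phloem. Transporters of the HAK family take up potassium, HKT proteins move sodium and potassium, NRAMP and ZIP proteins carry metal ions such as manganese, iron and zinc, and aquaporins form water channels in the plasma membrane (PIP) and the vacuolar membrane (TIP). Names such as *OsHAK5* are given here where the platform table and the RefSeq table pair the probe set with 1 named gene. The platform table gave 1 gene for 31 of the 39 probe sets and listed none for 8, which are called by their locus number.

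Signals are linear MAS 5.0 intensities, scaled alike on the 4 arrays (trimmed mean of 500.1). Array medians lay between 63.7 and 69.7, and 24026 to 24717 probe sets reached 100 on an array. Leaf identity was checked on 3 genes of the small subunit of Rubisco and of chlorophyll a/b-binding proteins, whose summed signal was 114691 to 122424. Of 2 root genes, *OsLsi2* stayed below 100 on all arrays and *OsNIP2;1* (the silicon channel Lsi1) had signals of 547 to 964. Of 4 floral organ MADS-box genes, 2 reached 100 on any array, and their summed signal reached 181 for wild type and 428 for *hd1-3* in SD leaves, and 86.6 and 351 in LD leaves.

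Many of the transporter probe sets were dim. All 4 signals reached 100 for 18 of the 39 genes, and 8 genes stayed below 100 on every array, with signals of 26.5 to 95.7. The spread of a log2 fold, taken across all probe sets from how far the SD over LD folds of wild type and *hd1-3* lay apart, was 1.14 at mean signals of 50 to 100, 0.68 at 100 to 250, 0.41 at 250 to 1000 and 0.29 at 1000 to 5000. It includes real differences between the genotypes. A cell is listed at 0 for 25 of the 39 genes in the study's table, while the deposited signals of the same cells were 4.02 to 384, with a median of 83.5. Of the 39 probe sets, 11 are marked by their names as able to match more than 1 transcript. The plot of signals by substrate class shows genes whose 4 arrays lay close together and genes whose signals split by day length or by genotype. In a few genes 1 array stood apart.

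**Figure D1:**
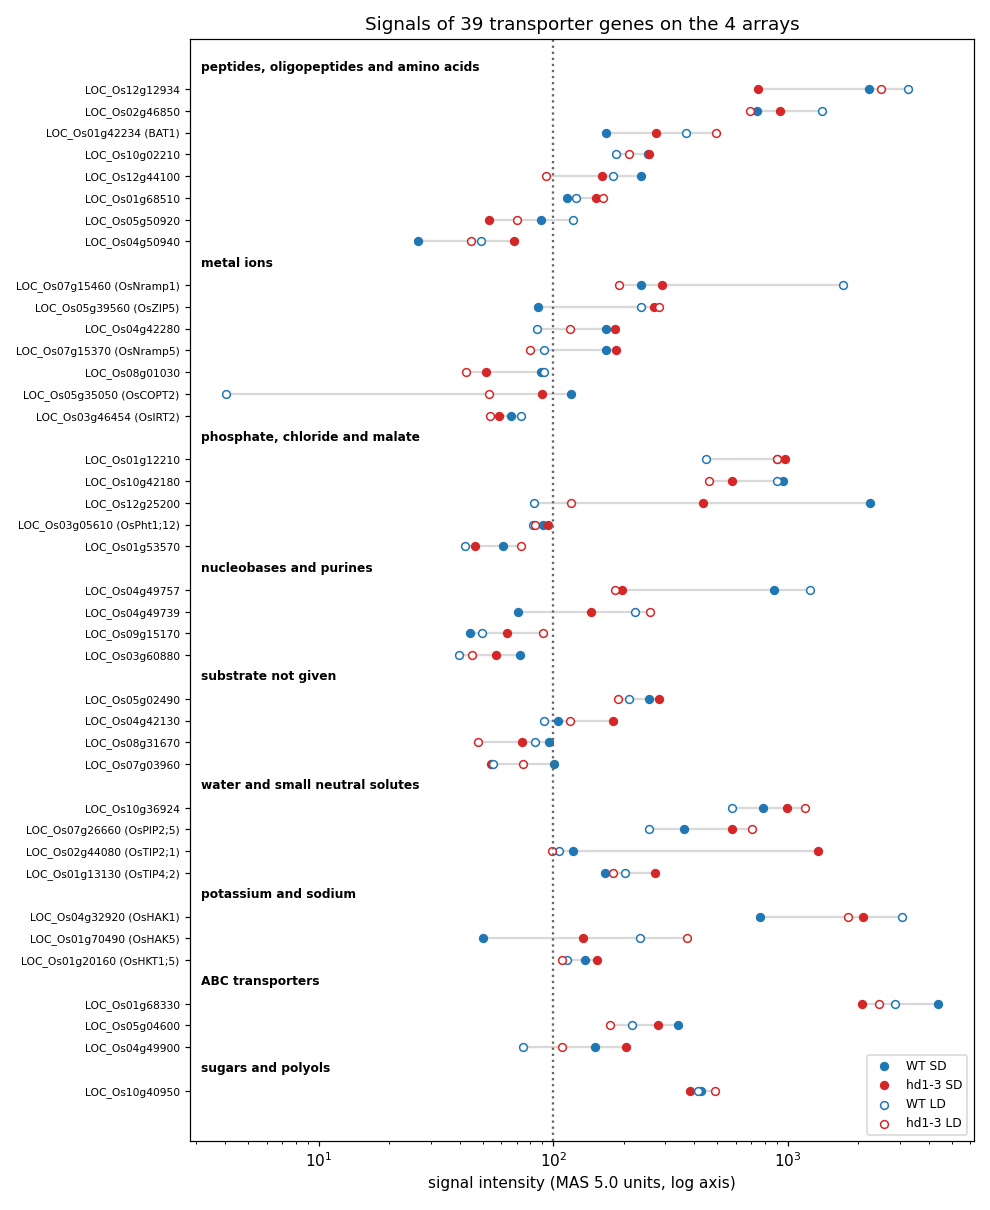
Signal intensity (MAS 5.0 units, log axis) of the 39 genes by substrate class, with filled points for SD and open points for LD, blue for wild type and red for *hd1-3*, 1 array each, and a dotted line at a signal of 100. *OsNramp1* is high only in wild type under LD condition (1715) and *OsTIP2;1* only in *hd1-3* under SD condition (1345), while 8 genes stay left of the line on all arrays.

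The day length comparison asked which of these genes differed between SD and LD leaves on average over both genotypes. A potassium transporter gene, a purine permease gene, an amino acid transporter gene and a peptide transporter gene fell under SD condition, and a chloride channel gene rose. Folds are given as log2 of signal + 1 under SD over signal + 1 under LD. The test was limma on log2(signal + 1) with genotype as a term, 2 arrays per day length, fitted over the 28133 probe sets that reached 100 on any array, and p-values were adjusted by the Benjamini-Hochberg method over all of them. It called 5 of the 31 genes that were bright enough to be tested (16.1%), 1 higher and 4 lower under SD condition. Over all probe sets tested 13.6% were called, 6.53% higher and 7.09% lower, so the share among the transporter genes was close to that of the whole array. Of the 31 genes, 11 had an unadjusted p under 0.05, as did 7591 of all 28133 probe sets tested. The median log2 difference was 0.19 over the 31 genes and -0.05 over all probe sets tested.

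Each probe set leaves the fit 1 residual degree of freedom, which is how far wild type and *hd1-3* disagree in their day length difference. A further 8.29 come from the variance of all probe sets, so the p-values draw mainly on the array as a whole. They do not measure variation between plants, for which the fit has no replicate. With no variance trend it called 0 of the 31 genes (8 at an unadjusted p under 0.05, against 5388 of all 28133 probe sets). With no genotype term it called 0 (6 at an unadjusted p under 0.05, against 5770 of all 28133 probe sets). With any 1 of the 4 arrays left out, which also drops the genotype term, LOC_Os12g25200 kept its call without the *hd1-3* SD array, and the other 4 genes were called in no such fit. The table that gave the genes appears to be ordered by *hd1-3* over wild type, which is not the difference tested here but was measured on the same arrays. For *OsHAK5* and *BAT1* (LOC_Os01g42234) that table lists the wild type SD cell at 0, with deposited signals of 50.1 and 167. The same signals lower the SD mean, so the test of these genes is not independent of how they were chosen. The other called genes, LOC_Os12g25200, LOC_Os12g12934 and LOC_Os04g49739, had log2 folds of *hd1-3* over wild type of -2.37, -1.56 and 1.03 in SD leaves. Those SD signals also enter the SD mean, so their tests are not shown to be independent of the choice either. For the 26 tested genes that were not called, log2 differences ran from -1.12 to 2.67 and adjusted p from 0.078 to 0.893.

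In single genotypes, 10 of the 31 genes whose brighter array reached 100 in wild type were above 2-fold between SD and LD (14.1% over all probe sets), 4 higher and 6 lower under SD condition (5.72% and 8.39% over all probe sets). In *hd1-3* it was 5 of 28 (14.2% over all probe sets), 3 higher and 2 lower (6.6% and 7.56%). Counting any signal below 100 as 100 left 8 genes above 2-fold in wild type, without *OsCOPT2* and LOC_Os04g49900, and 4 in *hd1-3*, without *OsNramp5*. With 1 array per genotype and day length these folds have no replicate check, and the wild type and *hd1-3* arrays that placed the genes in the table enter them. *OsHAK5* and the chloride channel gene LOC_Os12g25200 were the 2 genes above 2-fold in the same direction in both genotypes (5.18% over all probe sets bright in both). The 2 SD and the 2 LD signals did not overlap for 14 of the 31 tested genes, or 45.2%, against 52.6% of all tested probe sets.

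**Figure D2:**
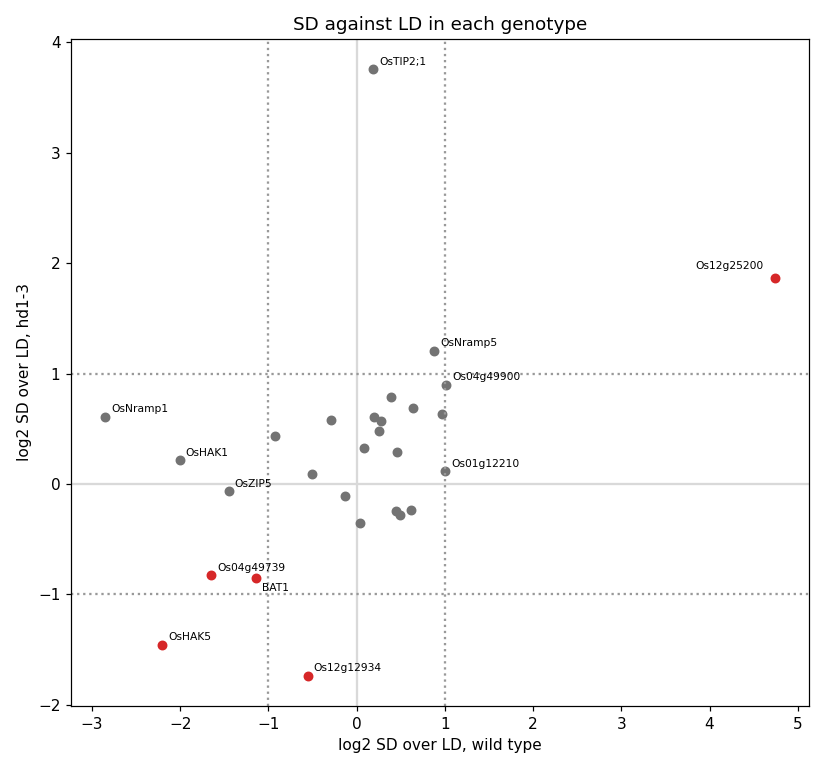
Log2 of SD over LD in wild type (x axis) and in *hd1-3* (y axis) for the 28 genes whose brighter array reached 100 in both genotypes, 1 point per gene, with dotted lines at 2-fold and the 5 genes called by limma in red. LOC_Os12g25200 lies far to the upper right and *OsHAK5* to the lower left, while *OsTIP2;1* and *OsNramp1* lie far from 0 in 1 genotype each.

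Potassium and sodium transporters included the member with the clearest fall among cation transporters. *OsHAK5* (LOC_Os01g70490), a high-affinity potassium transporter gene, had signals of 50.1 in wild type and 134 in *hd1-3* in SD leaves and of 235 and 371 in LD leaves. Both SD signals were below both LD signals, and in each day length the *hd1-3* signal was the higher. The gene fell under SD condition by 1.83 on the log2 scale (standard error 0.35, limma adjusted p = 0.00862). The wild type SD signal is below 100, so counting any signal below 100 as 100 the fold was at least 2.35 in wild type, and it was 2.76 in *hd1-3*. The platform table gives *OsHAK5* a second probe set, with signals of 20012 to 23749 and a log2 difference of 0.23 (adjusted p = 0.164), which is not the pattern of the first. The assignment of this second probe set to *OsHAK5* was not checked and may be wrong.

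*OsHAK1* (LOC_Os04g32920), another potassium uptake gene of the family, had signals of 766 in wild type and 2087 in *hd1-3* in SD leaves and of 3080 and 1801 in LD leaves. Wild type under SD condition was the low array, and *hd1-3* differed little between the day lengths, with log2 folds of SD over LD of -2.01 in wild type and 0.21 in *hd1-3*. The mean difference was -0.90 (standard error 0.39, limma adjusted p = 0.178), which did not pass. A second probe set of *OsHAK1* had signals of 304, 857, 1039 and 686 in the same order, with wild type under SD condition again lowest. *OsHKT1;5* (LOC_Os01g20160), which in rice removes sodium from the xylem, had signals of 137 and 154 in SD leaves and 115 and 109.5 in LD leaves, a range narrower than the spread at such signals (log2 difference 0.37, limma adjusted p = 0.598).

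Among 5 genes of anion transporters the chloride channel gene stood out. LOC_Os12g25200, annotated as a chloride transporter of the chloride channel family, had signals of 2248 in wild type and 434 in *hd1-3* in SD leaves and of 83.1 and 119 in LD leaves. Both SD signals were above both LD signals, and wild type under SD condition was the highest. The gene rose under SD condition by 3.30 on the log2 scale (standard error 0.52, limma adjusted p = 0.00329), which was at least 22.5-fold in wild type and 3.65-fold in *hd1-3*. Between the genotypes it was 5.18-fold lower in *hd1-3* under SD condition, and under LD condition the log2 fold was 0.51.

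The 3 genes annotated as aluminum-activated malate transporters, a family of anion channels in plasma and vacuolar membranes, showed smaller differences. LOC_Os01g12210 had signals of 901 in wild type and 977 in *hd1-3* in SD leaves and of 448 and 902 in LD leaves, with wild type under LD condition alone lower, just past 2-fold. LOC_Os10g42180 had signals of 954 and 579 in SD leaves and 899.9 and 462 in LD leaves, lower in *hd1-3* under both day lengths but by less than 2-fold. Neither passed for day length (adjusted p = 0.143 and 0.521 in limma). LOC_Os01g53570 and the phosphate transporter gene *OsPht1;12* (LOC_Os03g05610) stayed below 100 on all arrays and were not tested.

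Of 8 genes for peptides, oligopeptides and amino acids, 2 fell under SD condition, 5 were tested and not called, and 1 was too dim to be tested. The called share was 28.6% of those tested, against 13.6% of all probe sets tested. LOC_Os12g12934, annotated as peptide transporter PTR3-A, had signals of 2221 in wild type and 751 in *hd1-3* in SD leaves and of 3264 and 2502 in LD leaves. All LD signals were above the SD signals, and *hd1-3* under SD condition was the low array. It fell by 1.15 on the log2 scale (standard error 0.24, limma adjusted p = 0.0129), with log2 folds of SD over LD of -0.56 in wild type and -1.74 in *hd1-3*.

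*BAT1* (LOC_Os01g42234), annotated as an amino acid permease and named after an *Arabidopsis* bidirectional amino acid transporter, had signals of 167 for wild type and 274 for *hd1-3* in SD leaves and of 369 and 494 in LD leaves. It fell under SD condition by 0.99 on the log2 scale (standard error 0.23, limma adjusted p = 0.0205). The other 3 probe sets of this gene also fell, by 1.20, 1.25 and 1.36 (limma adjusted p = 0.0234, 0.0118 and 0.00902), so all 4 probe sets of *BAT1* gave the same direction. By their names these probe sets are variants for 1 transcript cluster and may share probes.

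The remaining peptide transporter genes did not pass for day length. The oligopeptide transporter gene LOC_Os02g46850 had signals of 737 for wild type and 928 for *hd1-3* in SD leaves and of 1401 and 687 in LD leaves, where wild type under LD condition was the high array (log2 difference -0.25, limma adjusted p = 0.624). Of the 4 genes annotated as PTR2, in the family that carries nitrate and peptides, 3 were tested, with log2 differences of -0.12 for LOC_Os01g68510, 0.37 for LOC_Os10g02210 and 0.59 for LOC_Os12g44100. The fourth, LOC_Os04g50940, was below 100 on all arrays. The amino acid transporter gene LOC_Os05g50920 reached 100 only in wild type under LD condition and was not called.

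The 2 purine permease genes are near neighbours on chromosome 4, with 1 annotated gene between them. Both had lower mean signals in SD than in LD leaves, and 1 of them passed the test. Purine permeases carry nucleobases and, in *Arabidopsis*, cytokinins. LOC_Os04g49757 had signals of 876 in wild type and 196 in *hd1-3* in SD leaves and of 1244 and 184 in LD leaves. It was lower in *hd1-3* under both day lengths, by 4.47-fold in SD leaves and by 6.77-fold in LD leaves, and day length made little difference in either genotype (log2 difference -0.21, standard error 0.22, limma adjusted p = 0.603).

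LOC_Os04g49739 had signals of 70.5 in wild type and 145 in *hd1-3* in SD leaves and of 223 and 257 in LD leaves. It fell under SD condition by 1.24 on the log2 scale (standard error 0.36, limma adjusted p = 0.0496), just past the threshold, and lost the call with quantile normalization (adjusted p = 0.0810) and with no filter on dim probe sets (adjusted p = 0.0827). With signals under 100 raised to 100 the wild type fold was at least 2.23. Between the genotypes its log2 folds were 1.03 under SD (at least 1.45-fold) and 0.21 under LD condition. Both genes annotated as nucleobase-ascorbate transporters, LOC_Os03g60880 and LOC_Os09g15170, were below 100 on all arrays.

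None of the 5 tested genes for metal ions was called for day length, but *OsNramp1* had a single array far above the rest. *OsNramp1* (LOC_Os07g15460), a metal transporter gene of the NRAMP family, had signals of 236 in wild type and 291 in *hd1-3* in SD leaves and of 1715 and 190.5 in LD leaves. The wild type LD array was 7.26-fold above wild type under SD condition and 9.01-fold above *hd1-3* under LD condition. The mean day length difference was -1.12 (standard error 0.60, limma adjusted p = 0.275). *OsNramp5* (LOC_Os07g15370), which takes up manganese and cadmium in rice roots and lies on chromosome 7 with 5 genes between it and *OsNramp1*, had signals of 169 and 186 in SD leaves and 91.6 and 80.0 in LD leaves. Both SD signals of *OsNramp5* were the higher, but the difference did not pass (log2 difference 1.04, standard error 0.40, limma adjusted p = 0.126).

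*OsZIP5* (LOC_Os05g39560), a zinc transporter gene, had signals of 86.0 in wild type and 269.8 in *hd1-3* in SD leaves and of 237 and 283 in LD leaves. Wild type under SD condition was the only low array, at least 2.37-fold below wild type under LD condition (limma adjusted p = 0.216 for day length). The magnesium transporter gene LOC_Os04g42280 had signals of 167 and 183 in SD leaves and 85.2 and 118 in LD leaves, a log2 difference of 0.80 that did not pass (limma adjusted p = 0.212). *OsCOPT2* (LOC_Os05g35050), a copper transporter gene, had signals of 119.5 and 89.9 in SD leaves and 4.02 and 53.2 in LD leaves. Its log2 fold of 4.59 in wild type has no exact size, since counting any signal below 100 as 100 it was at least 1.20-fold. The RefSeq names also give *OsCOPT2* to another gene, on chromosome 1, which stayed below 100 on all arrays. *OsIRT2* (LOC_Os03g46454), an iron transporter gene, and LOC_Os08g01030 did not reach 100.

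All 4 aquaporin genes were tested and none was called for day length. *OsTIP2;1* (LOC_Os02g44080), a water channel gene of the vacuolar membrane, had signals of 121 in wild type and 1345 in *hd1-3* in SD leaves and of 106 and 98.6 in LD leaves. The *hd1-3* SD array was 11.1-fold above wild type under SD condition and at least 13.4-fold above *hd1-3* under LD condition, and the other 3 signals lay close together (mean log2 difference 1.97, standard error 0.65, limma adjusted p = 0.078). A second probe set with the same name stem had signals of 71.0, 373, 41.9 and 40.7 in the same order, so the same array was high. On that array *OsNIP2;1* was also at its highest, 964 against 547 to 703 on the others; the part of root genes in the result was not tested.

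*OsPIP2;5* (LOC_Os07g26660), a water channel gene of the plasma membrane, had signals of 360 in wild type and 579 in *hd1-3* in SD leaves and of 257 and 704 in LD leaves. LOC_Os10g36924 had signals of 787 and 998 in SD leaves and 577 and 1184 in LD leaves. In both genes the *hd1-3* signals were above the wild type signals, past 2-fold only under LD condition (2.74- and 2.05-fold), and the day length differences were 0.10 each (limma adjusted p = 0.823 and 0.797). The probe set of LOC_Os01g13130, which the platform table assigns to *OsTIP4;2*, stayed between 166 and 271.

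The 3 ABC transporter genes, of pumps driven by ATP, did not pass for day length by the probe sets of the table. LOC_Os01g68330, annotated as an antigen peptide transporter-like protein of the chloroplast, had signals of 4372 in wild type and 2081 in *hd1-3* in SD leaves and of 2862 and 2451 in LD leaves, highest in wild type under SD condition. LOC_Os04g49900 had signals of 151 and 204 in SD leaves and 74.1 and 109 in LD leaves (log2 difference 0.95, limma adjusted p = 0.149). LOC_Os05g04600 had signals of 341 and 281 in SD leaves and 218 and 175 in LD leaves (log2 difference 0.66, standard error 0.25, limma adjusted p = 0.120).

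The platform table gives LOC_Os05g04600 other probe sets, an assignment that was not checked and may be wrong. One had signals of 6519 in wild type and 6171 in *hd1-3* in SD leaves and of 2584 and 2278 in LD leaves, and rose under SD condition by 1.39 on the log2 scale (standard error 0.13, limma adjusted p = 0.000226). A second, with signals of 1616 and 1164 in SD leaves and 647 and 762 in LD leaves, rose by 0.97 (limma adjusted p = 0.0123), and the last was below 100 on all arrays. By their names, those that rose are variants for the same transcript cluster and may share probes. Their name stem differs from that of the probe set of the table. In all, 10 of the 39 genes had 16 other probe sets, of which 10 were bright enough to be tested.

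The polyol transporter gene LOC_Os10g40950 was the only sugar or polyol gene and had signals of 427 and 384 in SD leaves and 415 and 489 in LD leaves, all within 1.27-fold for either comparison. Of 4 genes whose annotation gives no substrate, 3 were tested and none was called. LOC_Os05g02490 had signals between 189 and 283 and LOC_Os04g42130 between 91.8 and 180.

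The comparison of *hd1-3* with wild type is a description only, since the genes were selected on folds of this kind, which placed them in the rows of the table used. Under SD condition 9 of the 30 genes whose brighter array reached 100 were above 2-fold (9.94% over all probe sets), with 5 above wild type and 4 below it (5.14% and 4.81%). Under LD condition it was 6 of 28 (8.39% over all probe sets), 3 higher and 3 lower (3.43% and 4.96%). Counting any signal below 100 as 100 left 7 genes under SD condition, without *OsHAK5* and LOC_Os04g49739, and 6 under LD condition. The only gene above 2-fold in the same direction under both day lengths was the purine permease gene LOC_Os04g49757 (2.53% over all probe sets bright in both). The median log2 fold of the 31 genes bright enough for the day length test was 0.15 under SD and 0.19 under LD condition, and over all tested probe sets -0.01 and -0.02.

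The higher genes under SD condition were *OsTIP2;1*, *OsZIP5*, *OsHAK1*, *OsHAK5* and LOC_Os04g49739, with log2 folds of 3.46, 1.64, 1.45, 1.41 and 1.03. Wild type was below 100 for 3 of these, so that, counting any signal below 100 as 100, *OsZIP5* was at least 2.70-fold, *OsHAK5* at least 1.34-fold and LOC_Os04g49739 at least 1.45-fold higher, and the last 2 are not shown to be above 2-fold. In 4 of them, all but *OsTIP2;1*, wild type under SD condition was also the lowest of the 4 arrays. The lower genes under SD condition were LOC_Os12g25200 (-2.37), LOC_Os04g49757 (-2.15), LOC_Os12g12934 (-1.56) and LOC_Os01g68330 (-1.07). Under LD condition the higher genes were *OsPIP2;5* (1.45), LOC_Os10g36924 (1.04) and LOC_Os01g12210 (1.01), and the lower ones *OsNramp1* (-3.16), LOC_Os04g49757 (-2.75) and LOC_Os02g46850 (-1.03). Of 4 control genes whose 3′ over 5′ signal is a sign of RNA quality, GAPDH differed most between the genotypes, at 1.64 for wild type against 4.16 for *hd1-3* in SD leaves, and 1.48 against 4.25 in LD leaves. Actin differed the other way, at 4.46 against 3.75 and 3.62 against 2.92, while ubiquitin lay between 0.633 and 0.718 and cyclophilin between 1.42 and 1.69 on the 4 arrays. The higher floral sum in *hd1-3* came mainly from *MADS1*, at 71.7 against 296 in SD leaves and 21.9 against 237 in LD leaves. *MADS58* was also higher in *hd1-3*, at 63.8 against 103 in SD leaves and 26.8 against 56.4 in LD leaves. *MADS3*, higher in *hd1-3*, and *MADS13* stayed below 100. *MADS13* was lower in *hd1-3*, at 39.9 against 20.6 in SD leaves and 23.3 against 22.5 in LD leaves. The part of either in these folds was not tested.

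**Figure D3:**
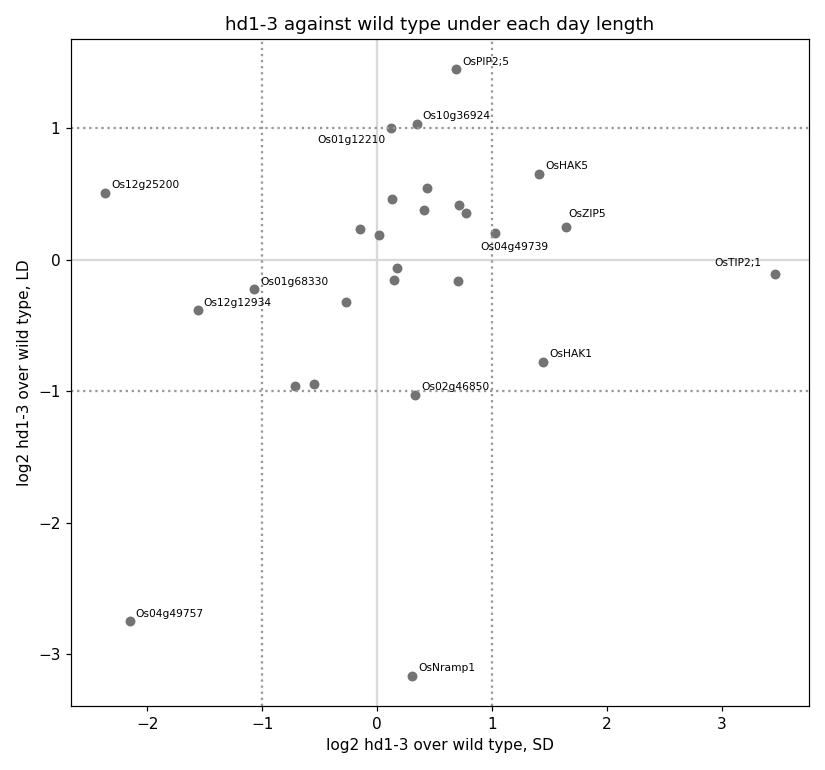
Log2 of *hd1-3* over wild type under SD (x axis) and under LD condition (y axis) for the 27 genes whose brighter array reached 100 under both day lengths, 1 point per gene, with dotted lines at 2-fold. LOC_Os04g49757 is the only gene past both lines in the same direction (-2.15 and -2.75), and *OsTIP2;1*, LOC_Os12g25200 and *OsNramp1* are far from 0 under 1 day length each.

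Other transporter genes on the array, taken by their family names in the RefSeq table and outside chromosomes 6 and 11, give the setting for the 39. Of 113 such genes 84 were tested for day length and 30 were called by limma (35.7%, against 13.6% of all probe sets tested), 13 higher and 17 lower under SD condition. The count fell to 3 or 7 when the SD or the LD array of wild type was left out and to 11 or 9 when that of *hd1-3* was, fits that also drop the genotype term, and to 0 without the variance trend (32 at an unadjusted p under 0.05). Without the trend, 5388 of all 28133 probe sets had an unadjusted p under 0.05. The listed genes were read by their brightest probe set, so brightness also differs between them and all probe sets. With at least 1 array at 500, limma called 29 of 63 listed genes and 3411 of 15045 probe sets over the array. The part of brightness in the difference was not tested. The calls in the families below come from the fit with all 4 arrays. The median log2 difference of the 84 genes was 0.01, against -0.05 over all probe sets tested. Past 2-fold between *hd1-3* and wild type were 4 of the 81 bright enough in SD leaves (9.94% over all probe sets), 2 in each direction. In LD leaves it was 2 of 80 (8.39% over all probe sets), both below wild type. The 39 genes were left out of the 113, and since folds between the genotypes placed the 39 in the table, those folds also shaped which genes remained among the 113. All 4 signals reached 100 for 75 of these 113 genes, against 18 of the 39.

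Among 17 tested aquaporin genes 8 were called (47.1%, against 13.6% of all probe sets tested). Most of those called rose under SD condition, 5 against 3, led by *OsPIP2;6*, with signals of 9999 in wild type and 10219 in *hd1-3* in SD leaves and of 3693 and 4131 in LD leaves (log2 difference 1.37, standard error 0.12, limma adjusted p = 0.000164). *OsPIP1;1* rose by 0.71 (adjusted p = 0.00148 in limma). The vacuolar *OsTIP4;1* fell, with signals of 3452 and 3821 in SD leaves and 9119 and 9000 in LD leaves (log2 difference -1.32, limma adjusted p = 0.000229), and so did *OsNIP1;1* (-0.83). None of the 4 aquaporin genes of the table was called. They came from rows that appear to be ordered by folds between the genotypes. They therefore cannot be compared with these genes for how steady a difference is in both genotypes.

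Of 16 tested HAK and HKT genes 3 were called (18.8%, near the 13.6% of all probe sets tested). *OsHAK17* fell like *OsHAK5*, with signals of 1995 in wild type and 1946 in *hd1-3* in SD leaves and of 7265 and 5718 in LD leaves (log2 difference -1.71, standard error 0.14, limma adjusted p = 0.000119). *OsHAK12* fell by 0.95 on the log2 scale and *OsHAK22* rose by 0.57 (limma adjusted p = 0.0455 and 0.0459).

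In the metal ion families 10 of 28 tested genes were called (35.7%, against 13.6% of all probe sets tested). Of these, 2 were higher and 8 lower under SD condition. The lower genes included *OsYSL13* and *OsYSL16*, of the family that carries metals bound to nicotianamine or related chelators. *OsYSL13* had signals of 345 in wild type and 412 in *hd1-3* in SD leaves and of 1846 and 1371 in LD leaves (log2 difference -2.08, limma adjusted p = 0.000327), and *OsYSL16* fell by 1.47. Both higher genes were of the MTP family, which moves metal ions out of the cytosol: *OsMTP5* rose by 0.82 and *OsMTP1* by 0.57 (limma adjusted p = 0.00184 and 0.0152).

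Of 13 tested sugar transporter genes 5 were called (38.5%, against 13.6% of all probe sets tested), 4 higher and 1 lower. The higher 4 were SWEET genes, which encode sugar uniporters. *OsSWEET1b* had signals of 6770 in wild type and 5319 in *hd1-3* in SD leaves and of 2407 and 2508 in LD leaves (log2 difference 1.29, limma adjusted p = 0.000604), and *OsSWEET2b* rose by 1.02. The monosaccharide transporter gene *OsMST3* fell by 0.89. Of 5 tested ABC transporter genes 2 fell, *OsABCG36* by 2.50 (signals of 313 and 330 in SD leaves and 2006 and 1665 in LD leaves, limma adjusted p = 7.70e-05) and *OsABCG44* by 1.32. Of 5 tested phosphate, nitrate and silicon transporter genes *OsPht1;8* fell by 0.85 and *OsPht1;4* rose by 0.60. The calls were 40% of the tested genes both here and for the ABC transporters, against 13.6% of all probe sets tested.

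**Figure D4:**
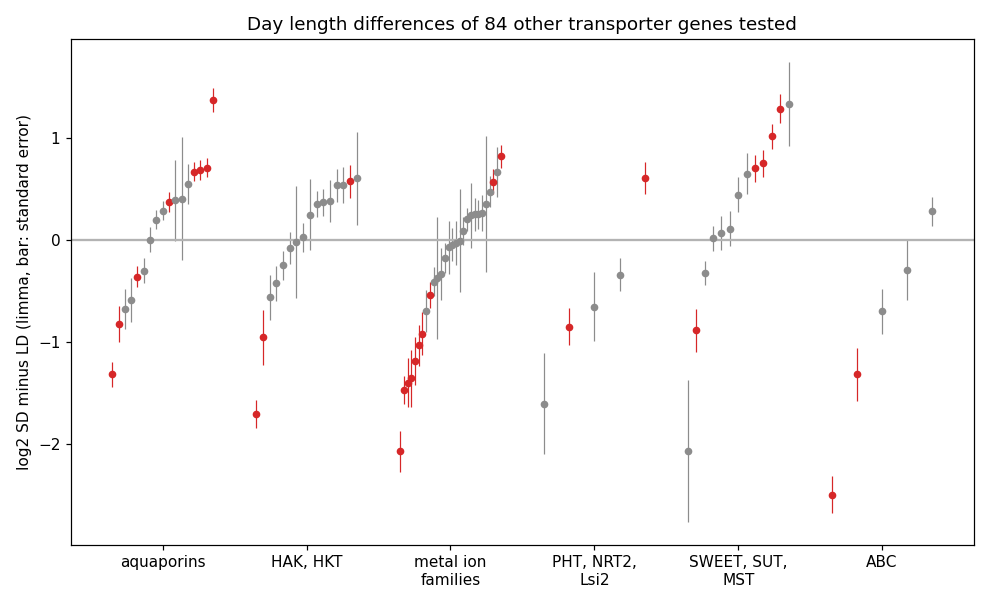
Limma log2 difference between SD and LD (y axis) with its standard error for 84 tested transporter genes of 6 family groups (x axis), sorted within each group, with genes called at an adjusted p under 0.05 in red. The lowest point is *OsABCG36* (-2.50), and the called SWEET genes lie above 0.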

How the data were processed

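Per the submitters' processing notes and the methods, the authors scanned 1 array per genotype and day length and processed it with MAS 5.0 (version and target value not given in the sources used here). The deposited values are linear signal intensities, 1 for each probe set on each array, with no detection calls. No further normalization was applied; 187 control probe sets were left out. With 1 array per group, their number limits the precision, and the 2 arrays of a day length differ in genotype.

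The fits used limma 3.58.1 under R 4.3.3, with lmFit, a trended eBayes, Benjamini-Hochberg adjustment and a threshold of 0.05. They tested day length with genotype as a term on log2(signal + 1), over probe sets reaching 100 on any array, and the code was tested on simulated data. Other steps used Python 3.11.15, pandas 2.3.3 and numpy 2.4.6. A gene was called above 2-fold where the brighter array of the pair reached 100, a floor chosen here. Where a dimmer signal was under 100, "at least" gives the fold with signals under 100 raised to 100.

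Annotations came from the study's table, which was used for no signal or fold; gene names came from the platform table and RefSeq assembly ASM3414082v1. The RefSeq table holds no descriptions, so the other transporter genes and the tissue markers were taken by family symbol (brightest probe set per gene), a departure from the planned key words. Members shown in full are those past 2-fold or called; of the other families, at most the 2 largest called differences per direction. The members and lists were chosen with earlier results of these data known. The alternatives tried were a constant of 32, scaling by bright probe sets, quantile normalization, other filters, no genotype term, no trend and each array left out. Protein and promoter sequences were not used here.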

Additional observations from a re-analysis of the deposited data

Results flagged for a closer look

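In 5 genes the fold in 1 group passed 2-fold while the other group lay on the opposite side of 0. Each group is 1 array, so these differences between groups were not tested, and most of the second values are small. How many of all probe sets do the same was not counted. The genes were also selected on folds between the genotypes, so their number is not a result about transporters.

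*OsNramp1* (LOC_Os07g15460) had log2 folds of SD over LD of -2.86 within wild type and 0.61 within *hd1-3*, and of *hd1-3* over wild type of 0.30 under SD and -3.16 under LD condition. *OsHAK1* (LOC_Os04g32920) had -2.01 within wild type and 0.21 within *hd1-3* for day length, and 1.45 under SD and -0.77 under LD condition for genotype. For LOC_Os12g25200 *hd1-3* over wild type was -2.37 under SD and 0.51 under LD condition. For *OsTIP2;1* (LOC_Os02g44080) it was 3.46 and -0.11, and for LOC_Os02g46850 it was 0.33 and -1.03.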

How the results depend on the processing

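With 32 added in place of 1 or with scaling by bright probe sets, limma called the same 5 genes for day length. It called 4 of them with quantile normalization or no filter, LOC_Os04g49739 being lost. With at least 1 array at 500 only 12 genes were tested. *OsHAK5*, *BAT1* and LOC_Os04g49739 did not reach 500 and were not among them. The other 2 called genes, 1 higher and 1 lower, kept their call. Without the genotype term or without the variance trend limma called 0 of the 31 genes (6 and 8 at an unadjusted p under 0.05). Over all 28133 probe sets 5770 and 5388 had an unadjusted p under 0.05, and without the trend 0 were called. With 1 array left out, which also drops the genotype term, 0 to 1 genes were called (0 to 1 higher and 0 to 1 lower), and 0 without the wild type LD array (4 at an unadjusted p under 0.05). LOC_Os12g25200 kept its call without the *hd1-3* SD array, *OsTIP2;1* was called without the wild type SD array and *OsNramp1* without the *hd1-3* LD array. Over these alternatives the log2 difference of LOC_Os12g25200 ran from 2.12 to 4.49 (adjusted p 0.000584 to 0.238), that of *OsHAK5* from -2.54 to -1.13 (0.00705 to 0.390), and none of the 5 changed sign.

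For the 113 other genes the count of 30 became 17 without the genotype term (8 lower), 0 without the trend, and 3 to 11 with 1 array left out (1 to 4 higher, 2 to 7 lower). Over all probe sets the calls went from 3831 to 1298 without the genotype term and to 196 to 597 with 1 array left out. The count above 2-fold was 4 in wild type and 2 in *hd1-3* for day length where the brighter array had to reach 500, and 3 for genotype under LD condition with 32 added. The floor of 500 also leaves out genes that never reached it, such as *OsHAK5* and *BAT1*. The share of all probe sets above 2-fold under these settings was not counted. With 1 array per genotype and day length, the only pairing of SD with LD arrays is by genotype, which the day length fit takes as its block. No detection calls were used here, so whether the 8 genes below 100 are expressed was not tested.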
